A study of Mus musculus with 6 samples.

Results

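Collagens outside the main fibrillar group were examined in mouse embryonic fibroblasts carrying a receptor mutation that causes bone to form in soft tissue. Of 49315 genes in the deposited table, 44 had the symbol of a collagen alpha chain. Leaving out the 9 main fibrillar chains (Col1a1, Col1a2, Col2a1, Col3a1, Col5a1, Col5a2, Col5a3, Col11a1 and Col11a2) left 35 members. They were grouped as 9 basement membrane, 9 FACIT, 8 microfibrillar, 3 network and 4 transmembrane chains, plus the 2 late fibrillar chains Col24a1 and Col27a1, which the symbol rule also took in. Filing the anchoring fibril chain Col7a1 with the basement membrane, and Col26a1 and Col28a1 with the microfibrillar chains, was a choice of grouping. Col21a1 was not analysed here.

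The wild-type group was Acvr1+/+ and the mutant group Acvr1R206H/+, with 1 copy of the R206H allele of Acvr1, which encodes a BMP (bone morphogenetic protein) receptor of type I. That allele is the classical cause of fibrodysplasia ossificans progressiva. All 6 libraries, 3 per genotype, came from fibroblasts of E13.5 embryos, at passage 0 after 2 days in culture with serum, with total RNA depleted of ribosomal RNA. Such fibroblasts are a mixed outgrowth of embryonic tissue, and the labels do not say whether a library came from 1 embryo or from several. The design text calls the replicates biological, and p-values measure the spread between these libraries. The question was which transcripts differ with the mutation.

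Values are TPM, transcripts per 1000000, which are scaled by gene length and so allow levels of different genes to be compared. Depth was estimated at 17500000 to 24600000 assigned reads per library. All 8 fibroblast markers were present in every library, with Vim at 2812 to 3485 TPM, and their levels differed between genotypes as given below. Wild-type library 1 stood apart in some endothelial genes: Pecam1 was at 4.22 TPM there and at 0.0712 to 0.714 in the other 5 libraries. Other endothelial genes did not set it apart. Eng was lowest there, at 33.4 TPM, and Kdr was at 8.15 TPM against 8.25 and 9.09 in wild-type libraries 2 and 3. In bulk RNA, fewer cells of a type and less RNA per cell cannot be told apart.

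Every collagen is a trimer of alpha chains wound into a triple helix, and the helix requires a glycine in each repeated triplet of residues. Fibrillar collagens make long uninterrupted rods, whereas the other types carry breaks in the helix and large non-helical domains, and assemble into sheets, beaded filaments or bridges. Collagen IV forms the network of basement membranes. Collagen VI forms beaded microfibrils around cells. FACIT chains (fibril-associated collagens with interrupted triple helices) sit on the surface of fibrils, network collagens VIII and X form lattices, and transmembrane collagens are anchored in the plasma membrane and can be shed.

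The glycine repeat can be read directly from the coding sequences, in which glycine is encoded by GGN. The longest coding transcript of each member in GENCODE release M21 was searched for runs of at least 5 GGN codons, 1 in each 3 codons. The stretches below, from chains that carry results described further on, show this repeat, with the GGN codons of the runs in capitals. The first comes from Col6a1 (codons 256 to 279) and the second from Col8a2 (codons 312 to 335), each from the start of its longest run. The third, from Col4a1 (codons 215 to 234), spans a break of 2 codons between runs.
Col6a1: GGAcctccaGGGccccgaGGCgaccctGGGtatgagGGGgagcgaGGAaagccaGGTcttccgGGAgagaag
Col8a2: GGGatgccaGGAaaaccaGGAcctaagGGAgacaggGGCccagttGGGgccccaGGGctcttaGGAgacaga
Col4a1: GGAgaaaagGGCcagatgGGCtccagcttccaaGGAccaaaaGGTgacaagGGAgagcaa

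The types differed in how these runs were laid out. Col24a1 and Col27a1 had the longest runs among the members, 216 and 217 GGN codons. In Col6a1 and Col6a2 the longest run was 87, and the chains held 3 runs each that covered 32.2% and 31.9% of all codons. Col4a1 had 22 runs covering 79.6% of its codons, the longest of 40. Col12a1, a very long FACIT chain of 3065 codons, had only 8.22% of its codons in runs. The 3 network chains had 9 runs each and just 2 coding exons, whereas the other members had 13 to 118 coding exons. Among coding exons, the share whose length was a multiple of 9 nt, which keeps whole glycine triplets, was 88.3% in Col24a1, 71.9% in Col9a2 and 38.5% in Col4a1.

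Several members are neighbours in the genome (GRCm38, GENCODE M21). Col4a1 (chromosome 8, 11198423 to 11312826, minus strand) and Col4a2 (11312805 to 11449287, plus strand) are arranged head to head, and their annotated transcripts overlap by 22 bases at their starts. That overlap, chr8:11312805-11312826 on the plus strand, is shown because both chains start in it.
Col4a1 and Col4a2 starts: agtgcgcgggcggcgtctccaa
Col4a3 and Col4a4 are also head to head on chromosome 1, with 71 bases between them, and Col4a5 and Col4a6 on the X chromosome, with 1308 bases between them. Col6a1 (chromosome 10, 76708792 to 76726168) and Col6a2 (76595762 to 76623630) lie in tandem on the minus strand, 85161 bases apart. Col6a3 lies elsewhere, on chromosome 1 (90765923 to 90843971).

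Upstream sequence is shown for the 2 members that passed the test below, Col6a1 and Col8a2, and for Col6a2, the neighbour of Col6a1. It is RefSeq sequence (GRCm38.p6), 5′ to 3′ on the gene's strand, and ends at the base before the most upstream annotated start. The intervals were chr10:76726169-76726294 (minus), chr10:76623631-76623880 (minus) and chr4:126286544-126286792 (plus). Capitals mark matches on either strand to 4 motifs, GGCGCC (a GC-rich SMAD motif of BMP responses), CAGAC (the SMAD box), GGAATG (bound by TEAD factors) and GGGCGG (the SP1 box). Near the end of the Col8a2 interval, neighbouring SP1 matches share bases.
Col6a1 upstream: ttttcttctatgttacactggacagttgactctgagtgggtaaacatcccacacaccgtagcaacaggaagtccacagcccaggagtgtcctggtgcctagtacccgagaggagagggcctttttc
Col6a2 upstream: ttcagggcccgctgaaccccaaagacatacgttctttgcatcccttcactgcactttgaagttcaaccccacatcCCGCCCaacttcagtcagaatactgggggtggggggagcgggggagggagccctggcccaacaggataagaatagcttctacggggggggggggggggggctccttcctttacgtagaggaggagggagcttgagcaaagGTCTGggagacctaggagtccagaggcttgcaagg
Col8a2 upstream: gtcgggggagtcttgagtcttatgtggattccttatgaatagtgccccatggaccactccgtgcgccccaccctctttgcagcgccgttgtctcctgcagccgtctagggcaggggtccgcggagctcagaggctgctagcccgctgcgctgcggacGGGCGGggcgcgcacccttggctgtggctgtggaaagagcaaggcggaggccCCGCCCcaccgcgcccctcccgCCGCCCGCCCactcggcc
The Col6a1 interval held none of the 4 motifs, Col6a2 held 1 SP1 box and 1 SMAD box, and Col8a2 held 4 SP1 boxes. In the full 300-base promoter windows, which run from 250 bases before to 50 after each start, 32 windows matched 29 of the 35 members by symbol. GGCGCC was in 12.5% of these and in 11.9% of all 32851 windows, CAGAC in 50% and 49.6%, GGAATG in 12.5% and 14.7%, and GGGCGG in 56.2% and 35.7%. These matches describe letters and do not show binding.

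In R206H fibroblasts the collagen VI chain Col6a1 and the collagen VIII chain Col8a2 were higher, and no member was lower. Of the 35 members, 26 reached the filter of 1 TPM in at least 3 libraries, each with at least 1 library of either genotype at that level. Col25a1 had 1 wild-type and 3 R206H libraries at that level, so its R206H libraries met the filter by themselves. It counts among the members without overlap given below. The 26 members were tested on log2(TPM + 1) with limma. On that scale the change of weakly expressed genes is understated. The 2 calls among 26 (7.69%) compare with 2.04% of all 14818 genes called, of which 1.26% were higher and 0.79% lower. At an adjusted p under 0.10 there were 8 members, all higher, against 6.9% of genes higher at that level. At an unadjusted limma p under 0.05 there were 12 of 26 members (46.2%), against 26.1% of all genes. limma voom, a test for counts, run on reads rebuilt from TPM, called 8 members higher and 0 lower, against 8.68% of genes called, 4.61% higher and 4.08% lower. The genotypes did not overlap in 12 of the 26, against 32.9% of all genes, with R206H above wild type in 11 (42.3%, against 17.9%) and below in 1 (3.85%, against 15%). The log2 difference was positive in 18 of 26 members, against 53.6% of all genes, and its median was 0.28 over the 26 members and 0.02 over all genes tested. In the same libraries the summed TPM of 12 epithelial markers ran from 547 to 641 in wild type and from 199 to 402 in R206H, with 2 of 11 tested lower (5 with voom) and none at 0 in any library. The 5 mural cell markers summed to 137 to 182 TPM in wild type and 222 to 264 in R206H, with 1 of 5, Rgs5, higher (4 with voom). The 8 fibroblast markers, which include Col1a1, summed to 5279 to 6588 TPM in wild type and 7888 to 9943 in R206H. Of these, 5 did not overlap, with R206H above (Thy1, Col1a1, Pdgfra, Twist1 and Prrx1, at mean ratios of 2.28, 2.20, 1.68, 1.46 and 1.34), and limma called 0 and voom 3 higher. The 4 mesothelial markers summed to 117 to 146 TPM in wild type and 42.1 to 111 in R206H, with Msln lower. The others, Upk3b, Wt1 and Lrrn4, overlapped between genotypes, at log2 values of 0.28, 0.17 and -0.06 (limma adjusted p = 0.759, 0.821 and 0.945). The 7 osteoblast markers summed to 2001 to 2321 and 1787 to 1948 TPM, with 0 called by limma and Ibsp, a bone matrix gene, lower with voom (21.5, 69.9 and 59.0 against 0.331, 14.0 and 2.47 TPM, voom adjusted p = 0.0456). Spp1 made up most of that sum, at 1957 to 2231 TPM in wild type and 1758 to 1901 in R206H. The log2 values of Spp1, Bglap and Alpl were also negative. Runx2 went the other way without overlap, at 14.9 to 18.9 TPM in wild type and 20.5 to 25.3 in R206H. Its log2 value was 0.41 (limma adjusted p = 0.0887), and that of Sp7, with overlapping groups, was 0.41 (limma adjusted p = 0.562). Mitochondrial genes took 4.16% to 4.57% of TPM in wild type and 3.43% to 3.85% in R206H. The part of these cell types and of this share in the collagen values was not tested.

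**Figure D1:**
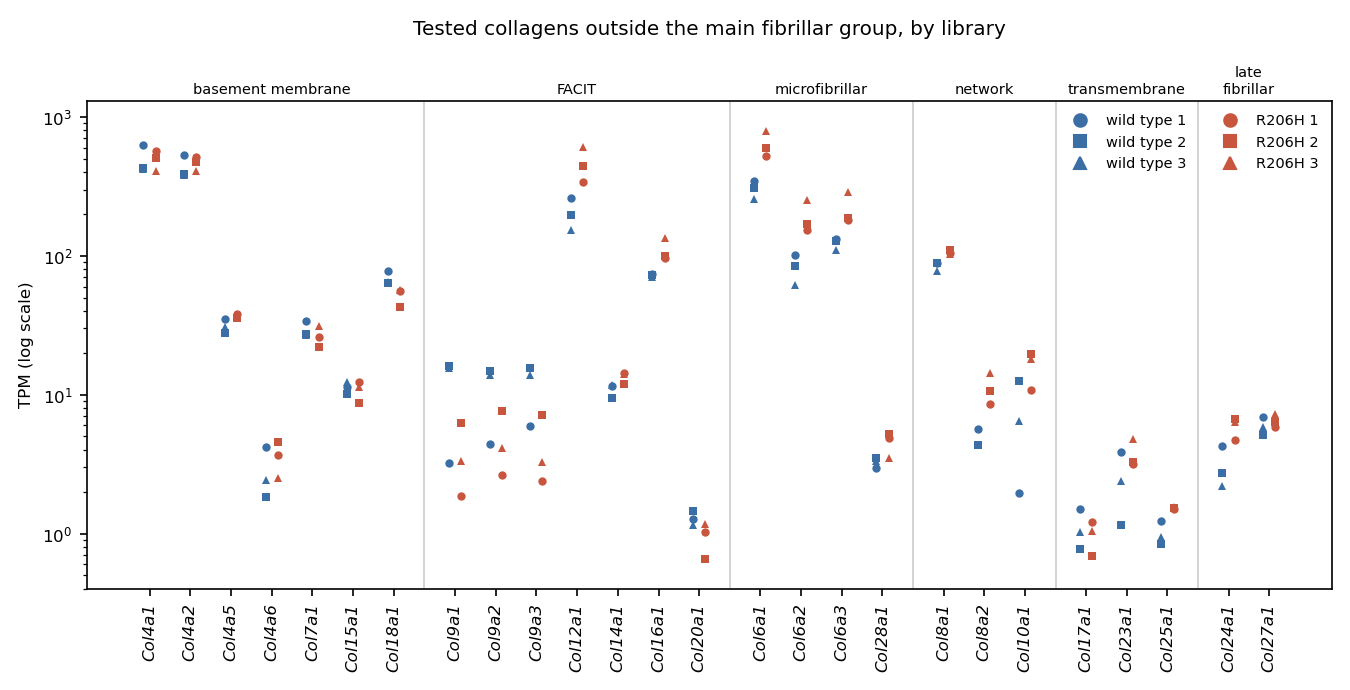
TPM (log axis) of the 26 tested members in each of the 6 libraries, by type, wild type in blue and R206H in red, with a marker shape for each replicate number. The 3 R206H libraries lie above all wild-type libraries for Col6a1, Col6a2, Col6a3, Col12a1, Col16a1 and Col8a2, whereas the genotypes overlap for Col4a1 and Col4a2.

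**Figure D2:**
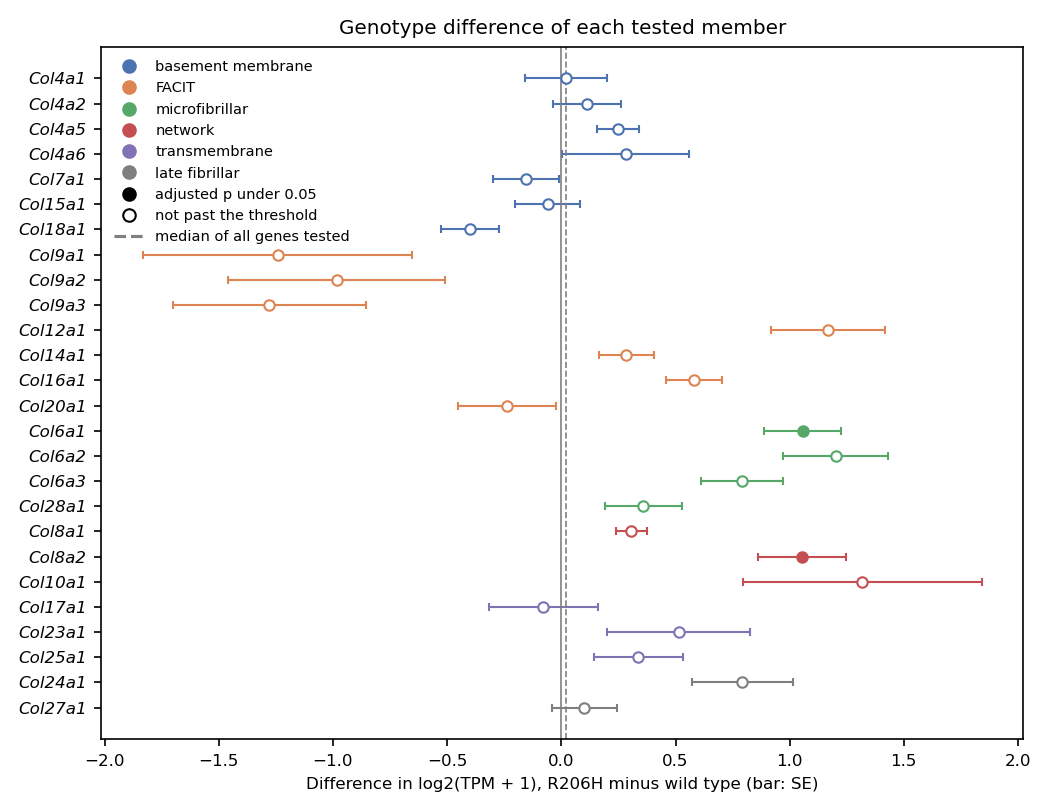
Difference in log2(TPM + 1), R206H minus wild type, of each tested member with its SE as a bar; filled points passed a limma adjusted p of 0.05 and the dashed line is the median of all genes tested. Only Col6a1 and Col8a2 are filled, and the 3 collagen IX chains are the lowest points, with the widest bars beside that of Col10a1.

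The microfibrillar group was led by collagen VI, whose alpha 1, alpha 2 and alpha 3 chains form the trimer found in most connective tissue. Col6a1 was at 345, 310 and 255 TPM in wild-type libraries 1, 2 and 3 and at 525, 596 and 789 in R206H libraries 1, 2 and 3. All R206H libraries were above all wild-type libraries, with R206H library 3 the highest. The mean was 2.10 times higher in R206H, at 637 ± 137 against 303 ± 45.4 TPM (SD, n = 3; log2 change 1.06, SE 0.17, limma adjusted p = 0.0463). The call was lost without wild-type library 2 or 3 or R206H library 2 or 3, at adjusted p = 0.126, 0.153, 0.152 and 0.0825, while the log2 value stayed between 0.89 and 1.18 over all single omissions.

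Col6a2 was at 102, 84.6 and 61.8 TPM in wild type and 154, 170 and 253 in R206H. Col6a3, which carries the longest non-helical part of the trimer, was at 133, 127 and 111 TPM in wild type and 180, 188 and 289 in R206H. Neither pair of groups overlapped, and the log2 values of 1.20 and 0.79 were just outside the threshold (limma adjusted p = 0.0508 and 0.0646). With voom all 3 chains passed (adjusted p = 0.0142, 0.0198 and 0.0279 for Col6a1, Col6a2 and Col6a3). They also passed with voom without R206H library 3, at adjusted p = 0.0161, 0.0261 and 0.0181, with log2 values of 0.87, 0.97 and 0.55.

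Ratios between the 3 chains were compared in each library. The ratio of Col6a3 to Col6a1 was 0.385, 0.410 and 0.434 in wild type and 0.343, 0.315 and 0.365 in R206H, lower in every R206H library. For Col6a2 to Col6a1 the ratios were 0.294, 0.273 and 0.242 against 0.293, 0.285 and 0.320, which overlap. Exact two-sided permutation tests gave p = 0.1 and p = 0.3, or 0.16 and 0.343 after Benjamini-Hochberg adjustment over the 8 ratios examined, and 0.1 is the smallest p that 3 against 3 allows. The size of these ratios depends on the gene lengths used: Col6a2 has a union of exons of 8326 nt and Col6a1 one of 4380 nt, although their coding parts are 1034 and 1025 codons. In estimated reads, wild-type library 1 had 7132 for Col6a1, 3991 for Col6a2 and 7497 for Col6a3.

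**Figure D3:**
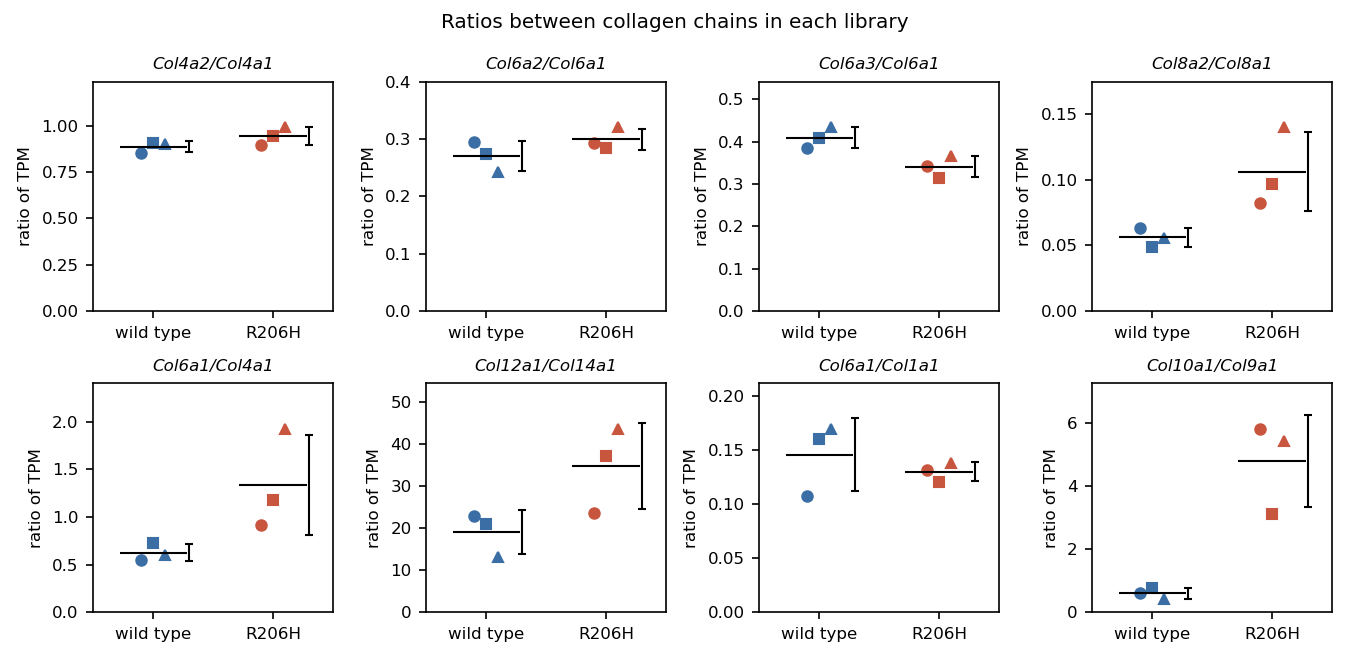
Ratios of the TPM of 2 collagen chains in each library (points, with a shape for each replicate number), with the mean as a line and the SD as a bar, for wild type (blue) and R206H (red). Col8a2/Col8a1, Col6a1/Col4a1, Col12a1/Col14a1 and Col10a1/Col9a1 are higher in every R206H library and Col6a3/Col6a1 is lower, while the ratios of Col4a2 to Col4a1, Col6a2 to Col6a1 and Col6a1 to Col1a1 overlap.

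The alternative collagen VI chains Col6a4, Col6a5 and Col6a6, which can take the place of alpha 3, were near the detection limit. Col6a4 was at 0.0347 to 0.186 TPM, and Col6a6 at 0.0351 to 0.261. Col6a5 was at 0 in R206H library 3 and at 0.0363 to 0.0683 elsewhere, and a count of 0 allows up to 3 reads, or 0.0676 TPM at the shallowest library. These values rest on 0 to 14 estimated reads per library, too few to compare genotypes. Col28a1, a von Willebrand factor A domain collagen best known from peripheral nerve, was at 2.98, 3.50 and 3.31 TPM in wild type and 4.85, 5.22 and 3.48 in R206H, with overlapping groups (limma adjusted p = 0.231). Beside it, the Schwann cell markers summed to 43.5 to 52.2 TPM in wild type and 20.9 to 30.2 in R206H. Of 5 tested, 2 were lower with limma, Sox10 and Foxd3, against 0.79% of all genes lower. Col26a1 was at 0.415 to 0.826 TPM in wild type and 0.128 to 0.418 in R206H and was not tested.

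Of the 8 listed partners of collagen VI, 1 was higher with limma (12.5%, against 1.26% of all genes), the proteoglycan gene Bgn, whose product biglycan binds collagen VI. It was at 774, 805 and 733 TPM in wild type and 1013, 1120 and 1164 in R206H (log2 change 0.51, SE 0.07, limma adjusted p = 0.0417). Cspg4, a membrane proteoglycan that binds collagen VI, and the membrane protease gene Mmp14 were at log2 values of 0.30 and 0.43 and missed the limma threshold (limma adjusted p = 0.0926 and 0.0741). Voom called 2 of the 8 higher (25%, against 4.61% of all genes) and 0 lower. These were Bgn and Mmp14 (voom adjusted p = 0.0142 and 0.0388). Of the collagen VI receptor genes in the list, Antxr1 had a log2 value of 0.53 and Antxr2 one of -0.34, and neither passed (limma adjusted p = 0.162 and 0.101, voom adjusted p = 0.0927 and 0.0529). Without wild-type library 1 Antxr1 was at 0.78 and passed (limma adjusted p = 0.0414, voom 0.00916), and Antxr2 was at -0.41 and passed with voom only (limma adjusted p = 0.0839, voom 0.0308). That library held the highest wild-type value of Antxr1 and the lowest of Antxr2, so its omission widens both differences. Over all genes, the omission left 226 of 14464 higher with limma, and 830 of 14785 higher and 694 lower with voom. Bgn lost the call without wild-type library 2 or 3 or R206H library 2 or 3 (adjusted p = 0.12, 0.149, 0.152 and 0.0825).

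Network collagens were measured in all 3 members. Col8a2, the alpha 2 chain of collagen VIII, which is a component of the membrane beneath the corneal endothelium and of vessel walls, was at 5.62, 4.35 and 4.37 TPM in wild type and 8.53, 10.7 and 14.3 in R206H. The groups did not overlap and R206H library 3 was again the highest. The mean was 2.34 times higher (11.2 ± 2.94 against 4.78 ± 0.729 TPM, SD, n = 3; log2 change 1.06, SE 0.19, limma adjusted p = 0.0489). The call was lost when any library other than R206H library 1 was left out, at adjusted p = 0.0507, 0.148 and 0.166 without wild-type libraries 1, 2 and 3 and 0.152 and 0.0972 without R206H libraries 2 and 3. With voom it passed (adjusted p = 0.0235), and also without R206H library 3 (0.0294).

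Col8a1, the partner chain, was much more abundant, at 88.8, 88.5 and 78.2 TPM in wild type and 104, 110 and 102 in R206H. These groups did not overlap either, but the log2 value was 0.31 (SE 0.07, limma adjusted p = 0.0625, voom adjusted p = 0.0388). The ratio of Col8a2 to Col8a1 was 0.0632, 0.0491 and 0.0558 in wild type and 0.0820, 0.0970 and 0.140 in R206H, higher in every R206H library (exact permutation p = 0.1, adjusted p = 0.16). Both chains can form homotrimers, so the 2 transcripts need not be equal.

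Col10a1, the collagen of hypertrophic cartilage, was at 1.96, 12.5 and 6.42 TPM in wild type and 10.8, 19.6 and 18.0 in R206H, with groups that overlapped. Its mean was 2.31 times higher in R206H, and its log2 value of 1.32 had an SE of 0.52 (limma adjusted p = 0.169). Wild-type library 1 was the lowest of all 6, and without it the log2 value was 0.73 (adjusted p = 0.22).

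The FACIT group held values in both directions, upward for Col12a1, Col14a1 and Col16a1 and downward for the collagen IX chains. Collagen XII, encoded by Col12a1, is a fibril-surface collagen of tendon, ligament and other tissues under load. Col12a1 was at 262, 198 and 155 TPM in wild type and 341, 442 and 611 in R206H, the highest FACIT level in every library. The groups did not overlap, the mean ratio was 2.27 and the log2 value 1.17 (SE 0.25), which did not pass (limma adjusted p = 0.0604) but did with voom (0.0235). Col16a1, the chain with the smallest p in this group, was at 73.8, 72.6 and 70.0 TPM in wild type and 96.0, 99.2 and 134 in R206H, with a log2 value of 0.58 (SE 0.12, limma adjusted p = 0.0594, voom adjusted p = 0.0272). Without R206H library 3 the voom values of Col12a1 and Col16a1 were 0.93 and 0.41 (adjusted p = 0.0425 and 0.0183).

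Col14a1 resembles Col12a1 in domain structure but was far lower, at 11.5, 9.40 and 11.8 TPM in wild type and 14.4, 11.9 and 14.0 in R206H. The ratio of Col12a1 to Col14a1 was 22.8, 21.1 and 13.1 in wild type and 23.6, 37.1 and 43.5 in R206H, not overlapping between genotypes (exact permutation p = 0.1, adjusted p = 0.16). R206H library 1 was close to wild-type library 1. Both chains bind small leucine-rich proteoglycans. Of 5 tested FACIT partners, limma called 1 higher (20%, against 1.26% of all genes), Fmod. It went from 8.98, 7.29 and 5.10 TPM to 34.3, 40.2 and 57.4 (log2 change 2.47, SE 0.23, limma adjusted p = 0.0272). Fmod lost the call without wild-type library 2 or 3 or R206H library 2 or 3 (adjusted p = 0.0939, 0.121, 0.152 and 0.0613). Dcn, a proteoglycan that binds both, was at 86.1, 43.9 and 43.2 TPM in wild type and 62.4, 59.2 and 62.6 in R206H (log2 value 0.16, adjusted p = 0.716). Without wild-type library 1, which held its highest value, its log2 value was 0.49 and it passed as higher (limma adjusted p = 0.0416, voom 0.0130). Over all genes, that omission left 226 of 14464 higher with limma and 830 of 14785 with voom.

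Collagen IX is a heterotrimer of the Col9a1, Col9a2 and Col9a3 products on the surface of cartilage fibrils, and its 3 genes lie on chromosomes 1, 4 and 2. Col9a1 was at 3.22, 16.1 and 15.5 TPM in wild type and 1.86, 6.29 and 3.33 in R206H. Col9a2 was at 4.38, 14.8 and 13.9 against 2.65, 7.66 and 4.15, and Col9a3 at 5.94, 15.5 and 13.9 against 2.40, 7.19 and 3.29. The 3 chains shared 1 order of libraries within each genotype, with wild-type library 1 and R206H library 1 low and R206H library 2 the highest of its group. Their log2 values of -1.24, -0.98 and -1.28 did not pass (limma adjusted p = 0.233, 0.242 and 0.123), and each pair of groups overlapped through wild-type library 1. Without that library the log2 values were -1.91, -1.49 and -1.67 with limma (adjusted p = 0.0574, 0.0724 and 0.0659). With voom and without that library they were -2.30, -1.78 and -2.01, and all 3 passed as lower (adjusted p = 0.0105, 0.0174 and 0.0133). This last setting was added after seeing the data and called 694 of 14785 genes lower.

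Other cartilage genes varied across the same libraries. Matn1, a cartilage matrilin, was at 0.742, 12.8 and 14.7 TPM in wild type and at 0, 1.89 and 0.176 in R206H. Cnmd, which encodes chondromodulin, was at 1.495, 12.1 and 7.85 TPM in wild type and 0.185, 2.85 and 0.477 in R206H. Both were low where the collagen IX chains were low. The 8 chondrocyte markers summed to 157 to 356 TPM in wild type and 236 to 346 in R206H, overlapping, and none of the 8 passed with limma or voom in all 6 libraries. Most of that sum was Col2a1, at 124, 191 and 267 TPM in wild type and 205, 291 and 184 in R206H (log2 value 0.27, limma adjusted p = 0.598). With voom and without wild-type library 1, the setting in which the collagen IX chains passed, 5 of the 8 passed as lower: Matn1, Cnmd, Comp, Hapln1 and Acan (adjusted p = 0.0142, 0.0194, 0.0236, 0.0305 and 0.0373). That setting was added after seeing the data, and over all genes it called 694 of 14785 lower. The library left out held the lowest wild-type value of each of these 5 genes. Col2a1, Matn3 and Sox9 did not pass in that setting, at log2 values of -0.06, -0.36 and 0.28 (voom adjusted p = 0.871, 0.484 and 0.367). Without that library Matn1 also passed with limma (adjusted p = 0.0431). Sox9, the transcription factor of chondrocytes, was at 16.3 to 22.8 TPM in wild type and 20.6 to 33.4 in R206H. The part of cartilage cells in the collagen IX values was not tested.

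**Figure D4:**
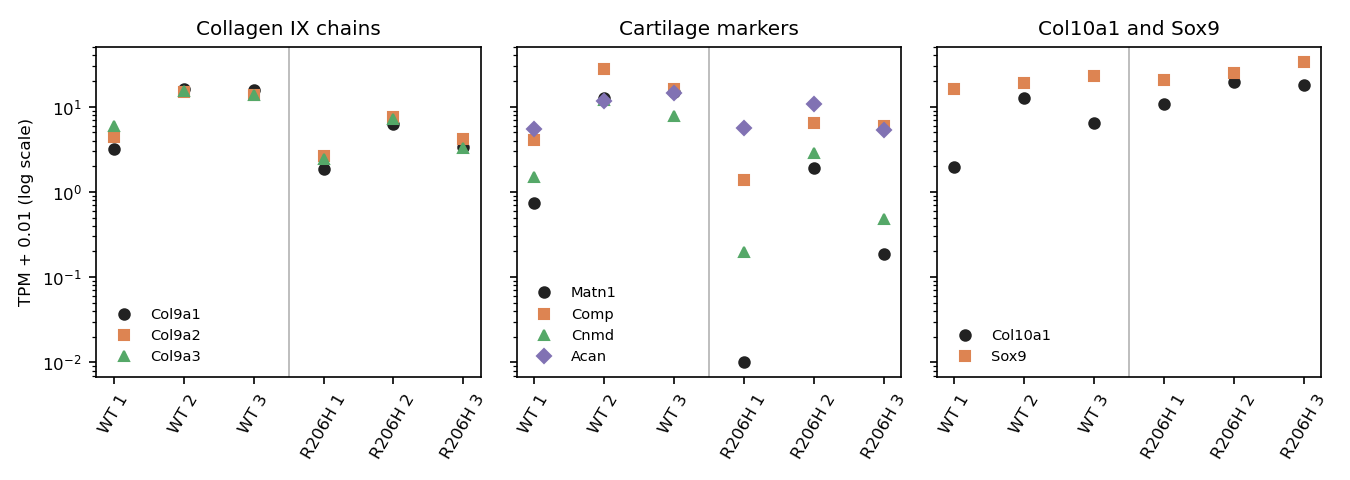
TPM + 0.01 (log axis) in each library of the 3 collagen IX chains (left), 4 cartilage markers (middle) and Col10a1 with Sox9 (right). Collagen IX and Matn1 are lower in wild-type library 1 than in wild-type libraries 2 and 3, Col10a1 is lowest in wild-type library 1, and the lowest Matn1 point stands for 0 TPM.

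Col10a1 and collagen IX, both cartilage collagens, had differences of opposite sign, none of which passed with limma. The ratio of Col10a1 to Col9a1 was 0.610, 0.777 and 0.413 in wild type and 5.80, 3.11 and 5.41 in R206H. It was higher in every R206H library, with means of 4.77 ± 1.45 and 0.6001 ± 0.182 (SD, n = 3; log2 difference 2.99, exact two-sided permutation p = 0.1, adjusted p = 0.16). Unlike each chain on its own, this ratio did not set wild-type library 1 apart from the other wild-type libraries.

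The remaining FACIT chains were weakly expressed. Col22a1, a collagen of tissue junctions such as that between muscle and tendon, was at 0.806, 1.20 and 1.45 TPM in wild type and 0.372, 0.456 and 0.401 in R206H. Its R206H libraries were all below wild type, but only 2 libraries reached 1 TPM and it was not tested. The values rest on 20 to 83 estimated reads. Col19a1 was at 0.794 to 1.29 TPM in wild type and 0.383 to 0.993 in R206H and was not tested either. Col20a1, at 1.15 to 1.45 against 0.651 to 1.17 TPM, did not pass (limma adjusted p = 0.525).

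The basement membrane chains Col4a1 and Col4a2 had the highest levels of all members in each wild-type library. Col4a1 was at 625, 426 and 425 TPM in wild type and 573, 504 and 410 in R206H. Col4a2 was at 534, 386 and 383 TPM in wild type and 514, 476 and 406 in R206H. The groups overlapped in both, and wild-type library 1 was the highest of the 6. For Col4a1 the log2 value was 0.02 (SE 0.18, limma adjusted p = 0.95), and its sign changed between the alternatives computed. Col4a2 had a log2 value of 0.11 (adjusted p = 0.672). Both chains form the usual collagen IV trimer, with 2 alpha 1 chains to 1 alpha 2 chain in the protein. The ratio of the transcripts was 0.854, 0.905 and 0.901 in wild type and 0.897, 0.945 and 0.991 in R206H, overlapping (exact permutation p = 0.3, adjusted p = 0.343).

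Collagen IV was also set against collagen VI. The ratio of Col6a1 to Col4a1 was 0.552, 0.727 and 0.6002 in wild type and 0.915, 1.18 and 1.92 in R206H. Thus in TPM Col4a1 exceeded Col6a1 in every wild-type library and in R206H library 1, and was below it in R206H libraries 2 and 3. This order depends on the gene lengths used, with exon unions of 7464 nt for Col4a1 and 4380 nt for Col6a1. In estimated reads, R206H libraries 2 and 3 had 17939 and 17407 for Col4a1 and 12429 and 19659 for Col6a1. The log2 difference in the ratio of Col6a1 to Col4a1 was 1.04 (exact two-sided permutation p = 0.1, adjusted p = 0.16). The ratio of Col6a1 to Col1a1, the main fibrillar chain, was 0.107, 0.161 and 0.170 against 0.132, 0.1204 and 0.138, which overlap (exact permutation p = 0.5, adjusted p = 0.5).

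The minor collagen IV chains were lower by far. Col4a5, on the X chromosome, was at 34.8, 27.6 and 30.7 TPM in wild type and 37.9, 35.7 and 37.1 in R206H, without overlap, and its log2 value of 0.25 did not pass (limma adjusted p = 0.151). With voom and without wild-type library 1, the highest of wild type, it passed (log2 0.31, adjusted p = 0.0465). Over all genes that setting called 830 of 14785 higher. Its head-to-head neighbour Col4a6 was at 1.84 to 4.20 TPM in wild type and 2.49 to 4.55 in R206H. Col4a3 and Col4a4, chains of the mature kidney and lung basement membranes, were at 1.45 and 1.24 TPM in wild-type library 1. In the other 5 libraries they were at 0.274 to 0.638 and 0.379 to 0.532 TPM. Neither was tested, and for Col4a3 all R206H libraries were below wild type, on 13 to 68 estimated reads. The endothelial genes Cdh5 and Tie1 were also highest in wild-type library 1, at 11.2 and 2.54 TPM against 1.42 to 2.67 and 0 to 0.18 elsewhere. Eng, Kdr and Tek were highest in other libraries. The 8 endothelial markers summed to 48.7 to 67.7 TPM in wild type and 44.6 to 49.4 in R206H, with Tie1 and Cldn5 at 0 in at least 1 library. The part of endothelial cells in the collagen IV values was not tested.

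Col18a1, the precursor of endostatin, was the basement membrane chain with the smallest p and the only tested member whose R206H libraries were all below wild type. It was at 77.7, 63.2 and 64.8 TPM in wild type and 56.1, 43.1 and 56.7 in R206H (log2 value -0.40, SE 0.13, limma adjusted p = 0.116). It did not pass with voom (adjusted p = 0.0522) and passed with library weights (0.048). The related chain Col15a1 was at 10.1 to 12.3 TPM in wild type and 8.76 to 12.3 in R206H. Col7a1, the anchoring fibril chain that holds skin epithelium to the dermis, was at 26.8 to 34.0 against 22.0 to 31.3 TPM. Neither passed (limma adjusted p = 0.825 and 0.547).

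Of 17 other basement membrane genes, 16 were tested and 0 passed the limma test, while voom called 3 higher (Lama5, Lamb2 and Nid2) and 2 lower, among them Lamb3. Over all genes, voom called 4.61% higher and 4.08% lower. Without adjustment, 10 of the 16 had a limma p under 0.05, against 26.1% of all genes. The nidogen gene Nid2 and the laminin gene Lamb2 had the smallest p, with log2 values of 0.30 and 0.56 (adjusted p = 0.0593 and 0.0668). Lamb3, which encodes a laminin chain of epithelia, had a log2 value of -0.78 (limma adjusted p = 0.118), beside the lower epithelial markers given above.

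Transmembrane collagens were the least abundant type, at 2.93 to 7.45 TPM summed. Col23a1, the most abundant of them, was at 3.88, 1.16 and 2.38 TPM in wild type and 3.19, 3.26 and 4.81 in R206H, with overlapping groups (log2 value 0.51, SE 0.31, limma adjusted p = 0.343). Col25a1, known from developing neurons and muscle, was at 1.23, 0.845 and 0.943 against 1.49, 1.52 and 1.56 TPM, without overlap (log2 value 0.34, SE 0.19, adjusted p = 0.316). Col17a1, a hemidesmosome protein of skin epithelium, was at 0.769 to 1.51 TPM in wild type and 0.692 to 1.22 in R206H (adjusted p = 0.862). Col13a1 was at 0.0371 to 0.322 TPM, on 1 to 7 estimated reads, and was not tested. Of 8 hemidesmosome and shedding genes, limma called 0 and voom called 2 lower, Itga6 and Dst, against 4.08% of all genes lower with voom. Without adjustment, 3 of the 8 (37.5%) had a limma p under 0.05, Itga6, Itgb4 and Dst. All were lower, against 11.7% of all genes lower at that level. In 4 of the 8 the genotypes did not overlap with R206H below (50%, against 15% of all genes). Itga6, the laminin-binding integrin chain of hemidesmosomes, was at 63.7, 76.4 and 86.0 TPM in wild type and 52.8, 46.4 and 37.0 in R206H (log2 value -0.72, adjusted p = 0.0593).

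The late fibrillar chains Col24a1 and Col27a1 belong to the fibrillar family by their long helix but were set apart from its main chains by the symbol rule. Col24a1, known from developing bone and eye, was at 4.26, 2.72 and 2.21 TPM in wild type and 4.73, 6.69 and 6.39 in R206H. The groups did not overlap (log2 value 0.79, SE 0.22, limma adjusted p = 0.0889, voom adjusted p = 0.0356). Without R206H library 3 the voom value was 0.92 (adjusted p = 0.0859). Col27a1, a cartilage chain, was at 6.93, 5.14 and 5.90 against 5.87, 6.32 and 7.24 TPM, and its groups overlapped (log2 value 0.10, SE 0.14, limma adjusted p = 0.696).

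Summed over all 35 members, the level was 2387, 1914 and 1762 TPM in wild type and 2689, 2789 and 3218 in R206H, 1.43 times higher in the mean and without overlap. By type, the mean ratio was 2.05 for microfibrillar, 1.85 for FACIT, 1.37 for network, 1.02 for basement membrane, 1.32 for transmembrane and 1.37 for late fibrillar chains. Microfibrillar sums were 583, 526 and 432 TPM in wild type and 865, 958 and 1335 in R206H. Basement membrane sums were 1325, 943 and 945 against 1224, 1096 and 956, which overlap. As a share of the TPM of all 44 collagens, basement membrane chains took 17.5% to 20.3% in wild type and 7.83% to 13.52% in R206H, while the microfibrillar share was 7.82% to 9.74% and 9.07% to 10.9%. The main fibrillar chains took a mean of 64.9% of collagen TPM in wild type and 72.5% in R206H. The sums and shares had no test. As single genes, 3 of the 9 main fibrillar chains passed the limma test as higher (33.3%, against 1.26% of all genes). Voom called 6 of them higher (66.7%, against 4.61%) and 1 lower, Col11a2 (against 4.08% of all genes).

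**Figure D5:**
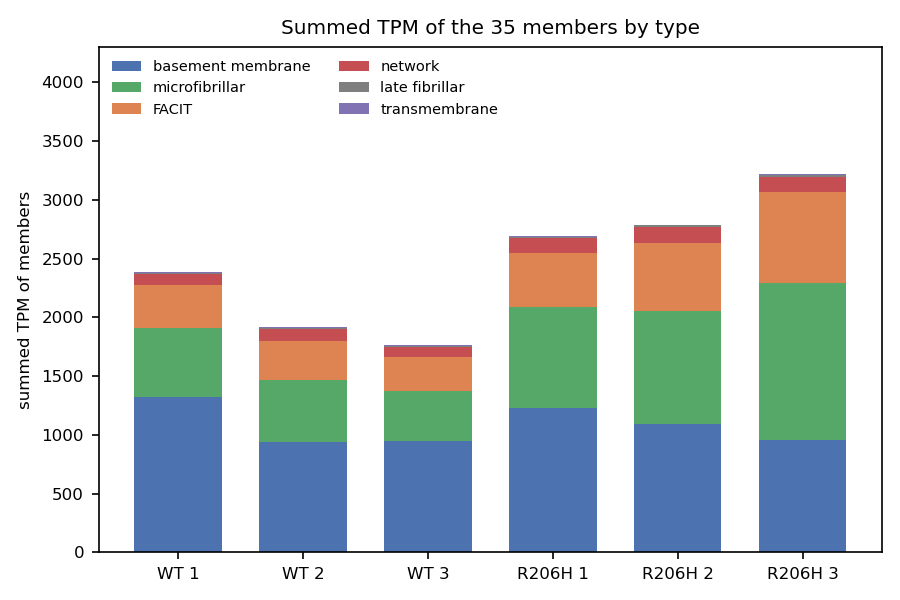
Summed TPM of the 35 members in each library, stacked by type, with bars starting at 0. The basement membrane segment is of similar height in both genotypes (means 1071 and 1092 TPM), while the microfibrillar and FACIT segments are taller in every R206H library.

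Genes that build, modify and bind these chains were counted over whole lists. Of 18 tested collagen biosynthesis genes, 4 were higher with limma (22.2%, against 1.26% of all genes) and none lower, and voom called 12 higher (66.7%, against 4.61%) and 0 lower. Their median log2 difference was 0.43, against 0.02 over all genes, and 13 of 18 did not overlap with R206H above (72.2%, against 17.9%). The list serves fibrillar and other collagens alike. P4ha3, a prolyl 4-hydroxylase subunit, was at 38.9, 35.9 and 39.2 TPM in wild type and 74.2, 78.3 and 80.2 in R206H (log2 change 1.01, SE 0.063, limma adjusted p = 0.0060). P3h4, part of a lysyl hydroxylase complex, the lysyl hydroxylase and glucosyltransferase gene Plod3 and the collagen chaperone gene Fkbp10 had log2 changes of 0.46, 0.37 and 0.44 (adjusted p = 0.0362, 0.0417 and 0.0476). The chaperone gene Serpinh1 and the hydroxylase subunit gene P4hb had values of 0.44 and 0.44 just outside the threshold (adjusted p = 0.0501 and 0.0501). P3h2, a prolyl 3-hydroxylase that acts on collagen IV, had a log2 value of -0.41 (adjusted p = 0.0889), with 14.2, 16.0 and 14.5 TPM in wild type and 11.6, 12.1 and 9.45 in R206H. All 4 called genes lost the call without wild-type library 3 or R206H library 2 or 3, at adjusted p of 0.0525 to 0.166. P3h4, Plod3 and Fkbp10 also lost it without wild-type library 2 (0.109, 0.126 and 0.14), and Fkbp10 without wild-type library 1 (0.0509).

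Of 8 tested collagen receptor genes, limma called 1 higher (12.5%, against 1.26% of all genes) and 0 lower. Voom called that gene higher (12.5%, against 4.61%) and 1, Itga2, lower (against 4.08% of all genes). Without adjustment, 6 of the 8 had a limma p under 0.05, in both directions (75%, against 26.1% of all genes). Itga11, the alpha 11 integrin chain of fibroblasts, was at 18.8, 11.6 and 13.2 TPM in wild type and 31.5, 33.3 and 31.5 in R206H (log2 change 1.12, SE 0.16, limma adjusted p = 0.0454). Itga1, whose integrin binds collagen IV in particular, had a log2 value of 0.51 and Itga2, an epithelial and platelet collagen receptor chain, one of -0.64, and neither passed with limma (adjusted p = 0.121 and 0.0929), while Itga2 passed with voom (adjusted p = 0.0388). Itga11 lost the call without wild-type library 2 or 3 or R206H library 2 or 3 (adjusted p = 0.12, 0.149, 0.152 and 0.0912).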

How the data were processed

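The authors deposited TPM values per Ensembl gene for the 6 libraries; every column adds up to 1000000. The submitters' processing notes name STAR, Trimmomatic, Subread, featureCounts and DESeq2, and mm10 (GRCm38) as the build, without roles or versions. How strand was treated, and which gene lengths and annotation release were used, is not given in the sources used here. Because TPM has a fixed total, abundant transcripts that rise push the others down.

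With exon-union lengths from GENCODE M21, each library's TPM converted to whole reads, within 0.05, for 91.1% to 91.5% of non-zero values under 100 reads, and so to estimated reads; intervals on them cover counting error only. Genes reaching TPM 1 in 3 libraries or more entered the test on log2(TPM + 1) with limma 3.58.1 (R 4.3.3), lmFit and eBayes with a trend, two-sided, Benjamini-Hochberg 0.05 over all genes. The procedure was run on simulated data with independent noise for each gene and library. Such data hold no shifts shared by many genes of a library. Ratios of chains had exact permutation tests (scipy 1.17.1). Full statistics were given for members past the threshold and, in each type, for the member with the highest mean and that with the smallest p, and for partner genes past the threshold with up to 2 others per list. Antxr1, Antxr2, Dcn, P3h2, Lamb3, Lama5 and single marker genes were named after their values were seen. The values of 1 partner gene are not reported here. Members, lists and chain ratios were chosen with earlier results of these data known. Alternatives covered pseudocounts, filters, scaling, variance models, a block, single libraries left out and limma voom. Leaving out a library with voom was added after seeing the data.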

Additional observations from a re-analysis of the deposited data

How the results depend on the processing

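limma called 2 members and 303 genes. With pseudocounts of 0.1 and 5 it called 1 and 1 members, with no filter 0 (13 at an unadjusted p under 0.05), with a filter at TPM 5 it called 5 and without the trend 0 (13 unadjusted). Library weights gave 9 members (8 higher, 1 lower). Median-of-ratios scaling, quantile normalization and rescaling without the 50 highest and mitochondrial genes gave 2 each. Voom called 8, and 12 (9 higher, 3 lower) without wild-type library 1 and 6 without R206H library 3. Leaving out single libraries gave 0 to 6 members and 0 to 729 genes, with 9 to 14 members at an unadjusted p under 0.05. Over all genes the count was 129 with pseudocount 0.1, 2 with no filter, 587 with the filter at TPM 5, 200 with quantile normalization, 27 without the trend, 1906 with library weights, 1284 with voom and 1524 with voom without wild-type library 1. With the replicate number as a block, 0 members and 0 genes passed with limma, with 15 members and 3301 genes at an unadjusted p under 0.05. Same-numbered libraries of the 2 genotypes had correlations of 0.018, 0.060 and -0.028 between their deviations, and only wild-type library 2 correlated best with its own number. No shared deviation was thus seen, but these correlations cannot tell whether same-numbered libraries were prepared as pairs. The difference of Col4a1 changed sign with median-of-ratios scaling (-0.00286), with voom (-0.00429) and without wild-type library 2 (-0.069), wild-type library 3 (-0.071) or R206H library 1 (-0.089), with single omissions ranging from -0.089 to 0.21. That of Col15a1 changed sign without R206H library 2 (0.073, in a range from -0.15), and that of Col17a1 without wild-type library 1 (0.055, or 0.097 with voom) and without R206H library 2 (0.030), with single omissions ranging from -0.20 to 0.055. No other tested member changed sign in the 19 alternatives. The cause of these changes was not tested. The 9 members that were not tested fell under the TPM filter; depth limits Col6a4, Col6a5 and Col6a6, at 0 to 14 estimated reads.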
